A study of Homo sapiens with 16 samples.

Results

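Isoform usage was compared between phorbol ester stimulated and unstimulated Jurkat T cells across 3 lines at once, with all 8 stimulated set against all 8 unstimulated libraries and the line as a covariate. These 16 libraries are all 16 of the series. The usage of a transcript is its share, in percent, of the summed TPM (a length-corrected abundance whose total is equal in all libraries) of its gene, so it describes the mix of transcripts and not the level of the gene. Genes entered when their TPM was at least 5 in each of the 16 libraries and when 2 or more transcripts were annotated for them. This held for 8079 of 58295 genes, which carry 85885 annotated transcripts, and 28608 of these transcripts had a mean share of at least 5% and were tested. A further 4903 genes reached 5 TPM in some libraries but not in all, and their usage was not analysed. At the limit of the rule, the gene NFXL1 entered with a lowest TPM of 5.002, and ITGAV stayed out with 4.999.

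All cells were JSL1, a clone of Jurkat, a human T cell leukemia line in wide use. The wild type (WT) was studied beside 2 lines edited with CRISPR-Cas9. One is the HDAC7 E9 knock-out, named JSL1 HDAC7 E9-/- and called dE9 here, and the other is the HDAC7 E9 knock-in, named JSL1 HDAC7 E9+ and called iE9 here. HDAC7 is a histone deacetylase, and the study asked what its exon 9 does. In each line, cells kept in growth medium (2 WT, 3 dE9 and 3 iE9 libraries) were compared with cells given 20 ng/mL PMA (phorbol 12-myristate 13-acetate; again 2, 3 and 3 libraries), and the labels give 48 h for every sample although the design text sets unstimulated cells at the start of stimulation. Whether each edited line is 1 clone, and whether libraries of a group come from separate cultures, is not stated, so the spread between libraries may be technical in part.

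Most human genes give rise to several mRNAs through alternative promoters, alternative splicing and alternative polyadenylation. PMA mimics diacylglycerol and activates protein kinase C, which in T cells feeds the RAS, ERK and NF-kB pathways. T cell activation is known to change the splicing of many genes, and the best studied case is PTPRC (CD45), the receptor tyrosine phosphatase of leukocytes, whose variable exons A, B and C are skipped more often in activated T cells. In Jurkat cells this skipping involves silencer elements in the exons that are bound by hnRNP L, a protein that prefers CA-rich RNA, and by PSF (SFPQ).

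Depth ran from 14.54 to 21.89 x 1e6 estimated counts per library. Mitochondrially encoded genes took 3.0% to 4.14% of counts in unstimulated and 5.2% to 6.39% in PMA libraries, except in both iE9 libraries numbered 1, which stood at 9.17% unstimulated and 12.81% with PMA. Of the T cell markers, CD3D, CD3E, CD3G, CD247 and LCK had at least 72.116 TPM in every library, while TRAC went down to 4.615, CD28 to 2.03 and CD7 to 4.702 TPM. The defining markers of other cells (MS4A1, CD14, LYZ, EPCAM, CDH1 and HBB) stayed at or below 1.179 TPM, while CD79A reached 538.274, PECAM1 69.632 and HBA1 52.024 TPM. The part of the mitochondrial share and of these markers in the usage changes was not tested, and the results that the iE9 libraries numbered 1 change are given with and without them.

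The exons that carry the main splicing results are shown first, since several are short enough to be read whole. Their sequences come from the GENCODE release 29 transcripts on hg38, 5′ to 3′ on the strand of the gene, and each CACA, a short motif of the CA-rich kind, is in capitals. All lie wholly within annotated coding sequence. SPTAN1 (chr9:128609651-128609665, + strand), BSCL2 (chr11:62691280-62691421, - strand) and LEF1 (chr4:108081586-108081669, - strand) have exons that were included more often with PMA. The exons of ARHGAP17 (chr16:24939364-24939597, - strand), PTS (chr11:112230208-112230230, + strand), TRAPPC13 (chr5:65655636-65655653, + strand), SNRPC (chr6:34757912-34757954, + strand) and PTPRC (exon A at chr1:198696712-198696909 and exon C at chr1:198702387-198702530, + strand) were included less often.
SPTAN1 exon of 15 nt: ctttccaagctgctg
BSCL2 exon of 142 nt: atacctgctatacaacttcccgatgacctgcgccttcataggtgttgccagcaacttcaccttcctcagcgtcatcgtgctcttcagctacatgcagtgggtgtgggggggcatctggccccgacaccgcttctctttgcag
LEF1 exon of 84 nt: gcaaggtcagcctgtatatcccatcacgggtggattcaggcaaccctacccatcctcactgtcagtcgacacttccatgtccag
ARHGAP17 exon of 234 nt: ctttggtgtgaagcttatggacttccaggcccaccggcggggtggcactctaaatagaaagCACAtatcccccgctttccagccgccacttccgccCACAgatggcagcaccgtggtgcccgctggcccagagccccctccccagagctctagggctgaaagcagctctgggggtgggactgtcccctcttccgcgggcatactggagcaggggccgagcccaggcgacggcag
PTS exon of 23 nt: ttgtggtgacagtacatggagag
TRAPPC13 exon of 18 nt: agtgacctcagttctgtg
SNRPC exon of 43 nt: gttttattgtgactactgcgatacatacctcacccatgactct
PTPRC exon A of 198 nt: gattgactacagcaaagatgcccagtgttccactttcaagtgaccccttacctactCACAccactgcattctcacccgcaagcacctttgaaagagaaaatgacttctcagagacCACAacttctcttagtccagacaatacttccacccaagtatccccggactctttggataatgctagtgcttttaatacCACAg
PTPRC exon C of 144 nt: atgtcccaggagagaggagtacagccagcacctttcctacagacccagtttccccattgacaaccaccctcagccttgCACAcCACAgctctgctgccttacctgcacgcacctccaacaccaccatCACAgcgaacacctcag

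PMA was accompanied by a change of isoform usage in a minority of genes, and the change reached from enzymes such as UNG and PTS to signalling and surface proteins such as LCK and PTPRC. A transcript was said to rise or fall when its share differed by at least 10 percentage points with a Benjamini-Hochberg adjusted p under 0.05 in limma, two-sided, over all transcripts tested. By this rule 780 of 28608 transcripts (2.73%) changed, 351 up (1.23%) and 429 down (1.5%), and 164 of them moved by at least 20 points. They belonged to 589 of 8079 genes (7.29%), and in 174 genes (2.15%) at least 1 transcript rose while another fell, which is called a switch here. The smallest called difference was 10.003 points, and a further 534 transcripts had an adjusted p under 0.05 with a smaller difference. Of the 780, 202 had no overlap between the 8 PMA and the 8 unstimulated libraries, against 329 (1.15%) of all transcripts tested. In bulk RNA, a change within every cell and a change in the make-up of the culture cannot be told apart.

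The number of calls depended strongly on the test. The count model of edgeR (diffSpliceDGE, quasi-likelihood) with the same limit of 10 points called 115 transcripts, of which 77 were among the 780. Of the 40 transcripts in the 20 named switches without overlap of treatments, edgeR called 14. An edgeR call also had to have the sign of the limma difference, so opposite calls could not occur. On simulated data of the same size, with 200 transcripts changed by 15 points and 200 by 30 points, limma called 80.5% and 100% of them and edgeR 24% and 76.5%, with 9 and 1 false calls. The simulated counts had the same spread setting for all genes and no uncertainty in assigning reads to transcripts. They therefore cannot tell which number of calls in the real data is nearer the truth.

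**Figure D1:**
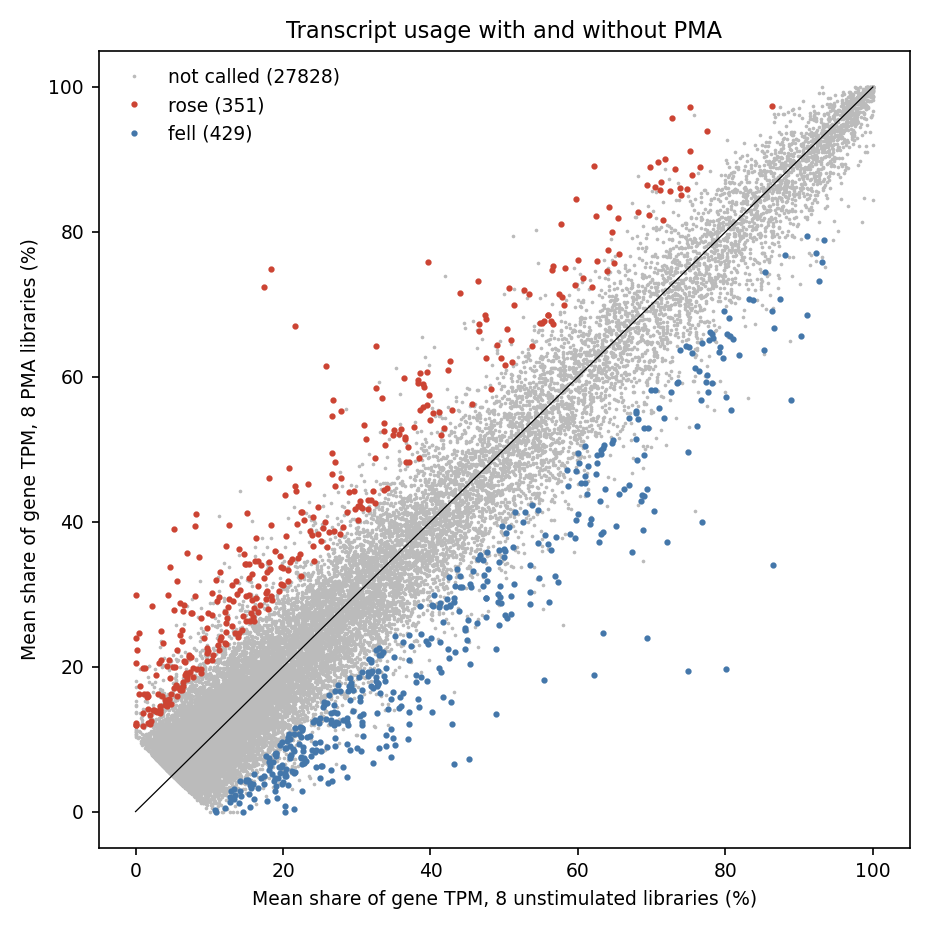
Each point is 1 of the 28608 transcripts tested, with its mean share of gene TPM in the 8 unstimulated libraries on the horizontal axis and in the 8 PMA libraries on the vertical axis, both in percent. Red points rose (351), blue points fell (429), and the line marks equal shares; UNG-202 and IPO11-203 are the red points farthest above the line.

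Among the 174 switches, the rising and the falling transcript differed in the first exon in 66, in the last exon in 29, in both ends in 23, and inside the transcript or in exon length in 56. In 100 of them both transcripts have an annotated coding sequence, decay targets included, and the 2 differ, in 24 the coding sequence is the same, in 18 coding sequence was gained, in 22 it was lost, and in 10 neither transcript encodes protein. No common direction in length was seen, since the rising transcript was the longer in 86 and the shorter in 88. Of the 104 pairs whose coding models are complete, the 3′ UTR was longer in the rising transcript in 45 and shorter in 43. In 6 genes 1 transcript had the largest share in all 8 unstimulated libraries and another in all 8 PMA libraries: IPO11, KRT10, MSL1, THAP4, TMEM201 and TMEM243.

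The switch of greatest size was in UNG, the uracil-DNA glycosylase that removes uracil from DNA, whose neighbouring starts give the nuclear form (UNG-201) and the mitochondrial form (UNG-202) of the enzyme. The share of UNG-201 ran from 73.69% over a median of 80.92% to 84.31% in unstimulated cells, and from 0.5% over 16.9% to 58.47% with PMA. No PMA library reached the unstimulated range, though the dE9 PMA library numbered 1 stood far above the other 7. The fall was 60.43 ± 5.90 points (SE; limma, adjusted p = 4.72e-05), against a rise of UNG-202 by 56.54 ± 6.19 points (adjusted p = 0.000127), from a median of 17.11% to 80.51%. Without that dE9 library the UNG-201 difference was -66.32 points. All transcripts that start in the first exon of UNG-202 together went from a mean of 19.65% to 79.57% of the gene, so the change lies in the choice of the first exon.

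IPO11 encodes importin-11, a nuclear import receptor. Its full-length transcript IPO11-201, with 2925 nt of coding sequence, had a median share of 76.4% (56.55% to 88.14%) in unstimulated cells and of 20.75% (11% to 26.86%) with PMA. The short IPO11-203, with 282 nt of coding sequence and a first exon inside the gene, went from 13.62% (0.99% to 42.51%) to 73.82% (65.67% to 78.56%). Treatments did not overlap for either transcript, and the rise was 54.87 ± 4.80 points (limma, adjusted p = 2.28e-05). IPO11 overlaps KIF2A and LRRC70 on the same strand, so reads of these genes may not be fully separated.

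Other switches of the first exon changed the protein to different degrees. TMEM243, a membrane protein gene, exchanged TMEM243-203 (62.19% to 18.8%, means of 8) for TMEM243-201 (21.57% to 66.98%), which has the same coding sequence; it overlaps DMTF1 on the opposite strand. For LIMS1, the PINCH adaptor of integrin signalling, LIMS1-215 fell from a median of 85.94% (78.73% to 94.67%) to 31.79% (18.8% to 61.41%), a difference of -52.42 ± 5.01 points (limma, adjusted p = 4.23e-05). Both of the other LIMS1 starts that were tested rose, the one of LIMS1-203 by 24.17 ± 2.68 points from a median of 0% to 23.22%, and the one of LIMS1-204 by 27.61 ± 3.86 points from 10.04% to 39.22%, the latter with overlap between treatments. THAP4, a THAP-domain protein, exchanged THAP4-204 (63.42% to 38.55%) for THAP4-202 (32.64% to 58.4%), which has 495 instead of 1731 nt of coding sequence. THAP4 overlaps ATG4B on the opposite strand. IER2, an immediate early gene, moved to IER2-201 (72.71% to 95.77%) away from IER2-203 (26.64% to 4.19%), with the coding sequence unchanged.

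In several switches a transcript with full coding sequence replaced a partial or noncoding one. KRT10, a type I keratin gene, went from 33.09% (28.65% to 36.3%) to 65.48% (53.82% to 73.77%) of KRT10-201, by 31.61 ± 2.14 points (limma, adjusted p = 2.2e-06), and KRT10-202, an incomplete model, fell by as much. KRT10 overlaps TMEM99 on the opposite strand. PSMB10, an interferon-inducible catalytic subunit of the immunoproteasome, had PSMB10-201 at a median of 18.22% (14.37% to 39.03%) without and 46.03% (39.17% to 58.52%) with PMA, while the retained-intron transcript PSMB10-203 fell from a mean of 65.21% to 39.41%. With shares computed over protein-coding transcripts alone the PSMB10-201 difference was -0.51 points, so the gain is against noncoding transcripts. VANGL1, a planar cell polarity gene, gained VANGL1-202 (44.01% to 71.52%) and lost the short noncoding VANGL1-205 (19.23% to 1.84%); as a share of estimated counts, which weights long transcripts more, the rise of VANGL1-202 was 6.08 points and was not called. Its call was also lost over coding transcripts alone (12.49 points, adjusted p = 0.25) and in edgeR (adjusted p = 1), while the adjusted p ranged from 0.00232 to 0.0131 in the fits without 1 library. The loss in edgeR is not particular to VANGL1, since edgeR called 14 of the 40 transcripts in the named switches.

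The opposite was seen for PTS, the pyruvoyl-tetrahydropterin synthase of tetrahydrobiopterin synthesis. PTS-207, annotated as a target of nonsense-mediated decay, rose from a median of 41.03% (21.75% to 51.88%) to 75.69% (70.08% to 79.41%), by 36.24 ± 3.2 points (limma, adjusted p = 2.28e-05). The coding PTS-201 fell from 51.82% (27.85% to 61.73%) to 11.99% (7.05% to 21.67%). Both pairs of ranges were apart, and the pair differs by the 23 nt exon shown above, whose inclusion fell from a mean of 54.68% to 14.55%. ZNF273, a zinc finger gene, likewise gained ZNF273-201, a decay target (38.64% to 60.46%), and lost the noncoding ZNF273-206 (38.1% to 17.95%).

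Switches of the last exon involve alternative polyadenylation. HIVEP3, a large zinc finger transcription factor, had the clearest one: transcripts with the distal last exon held 13.98% (8.22% to 18.04%) of the gene unstimulated and 67.3% (58.94% to 68.79%) with PMA, a rise of 51.77 ± 1.91 points (limma, adjusted p = 6.71e-11). The rise was 52.29 points in WT, 51.98 in dE9 and 51.2 in iE9. At the transcript level HIVEP3-201, with 7218 nt of coding sequence, rose by 25.4 ± 2.04 points and the noncoding HIVEP3-204 fell by 24.93 ± 3.07 points. SLC38A10, an amino acid transporter gene, moved 27.28 ± 2.44 points to the last exon of SLC38A10-202, from a median of 36.06% (33.58% to 42.12%) to 64.57% (55.12% to 73.32%). TSPAN31, a tetraspanin gene, went from 0% (0% to 15.09%) to 37.89% (28.97% to 54.32%) of transcripts ending in an upstream exon, by 36.44 ± 3.6 points. RAB43, a RAB GTPase gene, and LINC00649, a long noncoding RNA, complete the 5 genes of greatest change, and the called rise of the RAB43 last exon group (30.9 points) was lost in 10 of the 16 fits without 1 library. That rise was 45.85 points in WT and 48.74 in dE9 but 3.09 in iE9, where unstimulated libraries already stood at 66.94% to 100%. The difference between lines did not pass (limma F test, adjusted p = 0.692).

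Other switches of the 20 without overlap were in ACYP2, TMED4 and COG8. ACYP2, an acylphosphatase, exchanged ACYP2-207 (45.36% to 20.43%, means of 8) for ACYP2-202 (33.43% to 57.1%), and TMED4, a p24 family member of the early secretory pathway, exchanged TMED4-205 (28.19% to 6.2%) for TMED4-203 (56.62% to 75.31%). ACYP2 overlaps PSME4 on the opposite strand. COG8, a subunit of the Golgi tethering complex, had COG8-207 listed at 0 in all 8 unstimulated libraries and at 13.75% to 35.75% with PMA, while COG8-201 fell from 41.33% to 23.4%; it overlaps PDF on the same strand.

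Counted over all genes, 201 groups of transcripts sharing a first exon rose and 277 fell of 14484 tested (3.3%), in 328 genes. For last exons, 147 groups rose and 172 fell of 13951 (2.29%), in 227 genes. BCL2L1, which encodes the apoptosis regulators BCL-xL and BCL-xS, was among the 5 largest first exon changes: the group of BCL2L1-203 rose by 38.54 ± 4.39 points, from a median of 5.74% (1.61% to 38.27%) to 50.76% (37.83% to 56.31%). Its ranges touched because the iE9 unstimulated library numbered 1 stood at 38.27%. BCL2L1-203 and the falling BCL2L1-201 have the same coding sequence. BCL2L1 is overlapped by ABALON on the opposite strand.

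**Figure D2:**
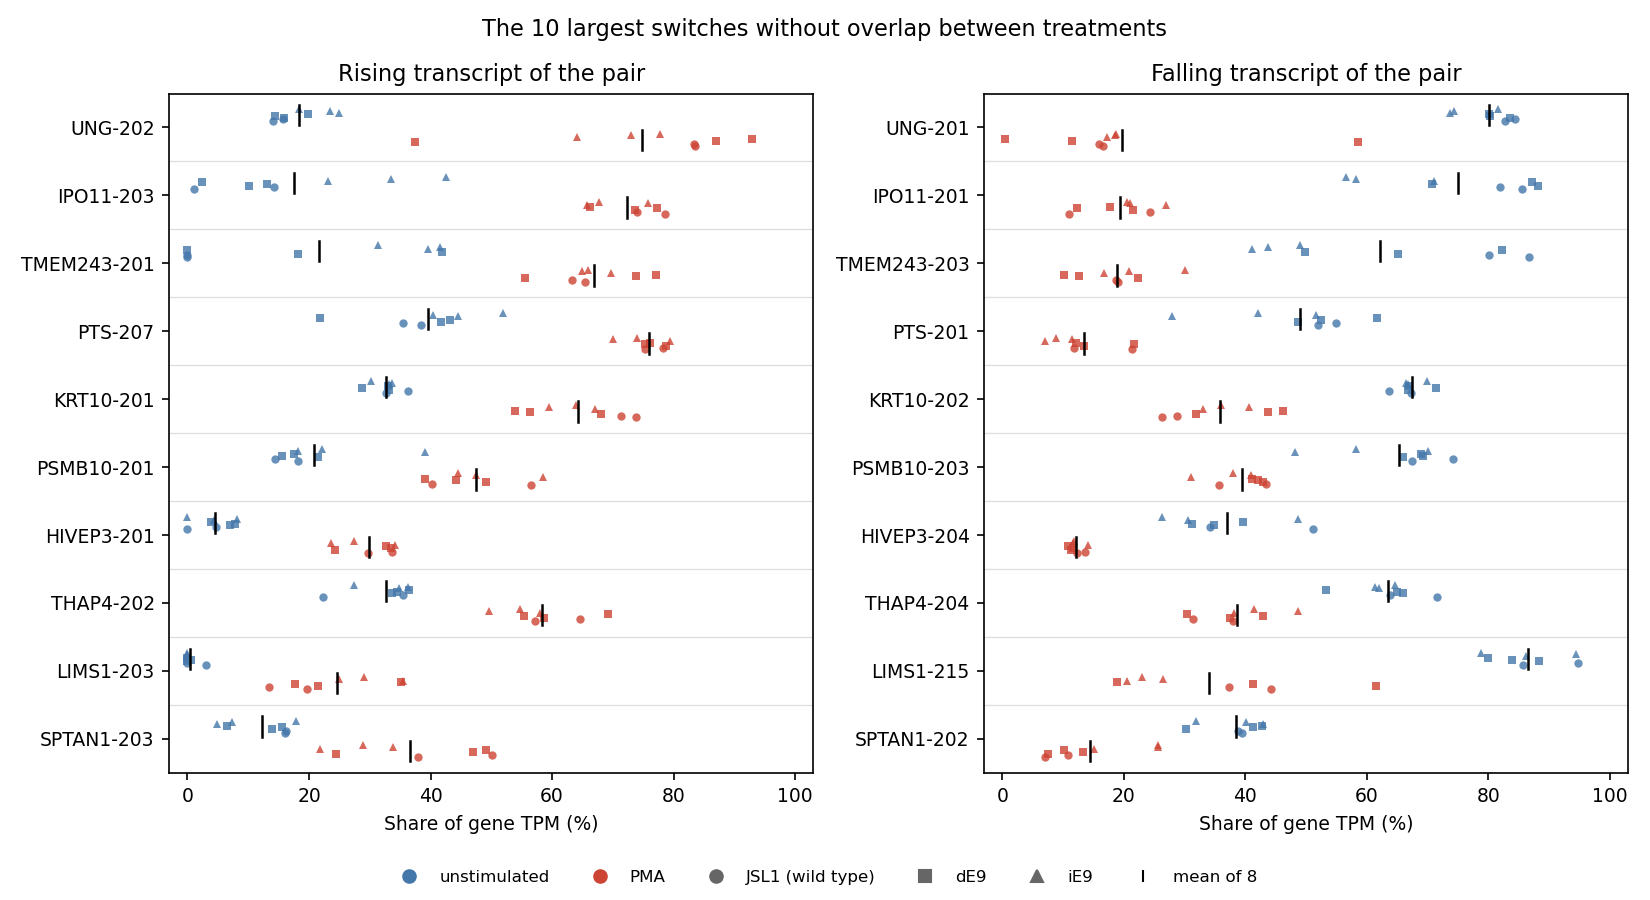
Share of gene TPM in percent (horizontal axis) for the rising and the falling transcript of the 10 switches of greatest size whose treatments do not overlap; each point is 1 library, blue unstimulated and red PMA, with circles for WT, squares for dE9 and triangles for iE9, and the bar is the mean of 8. UNG-202 lies at 14.15% to 24.87% without and 37.39% to 92.96% with PMA, and the lowest red square is the dE9 library that stands apart.

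Inclusion of cassette exons was measured as the TPM of transcripts that hold an exon over the TPM of those that hold it or skip it between the same flanking splice sites. Of 5918 exons in 3717 genes, 227 (3.84%) changed by the same rule as for transcripts. More rose than fell, with 158 (2.67%) included more and 69 (1.17%) included less with PMA, beside a median difference over all exons of 0.78 points. Treatments did not overlap for 40 of the rising and 21 of the falling exons, 61 in all, against 84 (1.42%) of all exons tested.

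The exon of 15 nt in SPTAN1, the alpha-II spectrin of the membrane skeleton, had the greatest rise. Its inclusion ran from 11.54% over 27.97% to 34.28% in unstimulated cells and from 52.96% over 77.39% to 84.38% with PMA. The ranges lay far apart, and the difference was 48.41 ± 3.84 points (limma, adjusted p = 3.4e-06), with 55.16 points in WT, 55.73 in dE9 and 36.59 in iE9. The transcripts SPTAN1-203, with the exon, and SPTAN1-202, without it, differ by 15 nt of coding sequence and rose by 24.35 and fell by 24.01 points. WDR34 overlaps SPTAN1 on the opposite strand.

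LEF1, a transcription factor of the WNT pathway and of T cell development, included its exon of 84 nt at 48.47% (35.26% to 53.73%) without and 68.18% (63.6% to 73.53%) with PMA. Every PMA library lay above every unstimulated one, and the rise was 21.66 ± 1.83 points (limma, adjusted p = 4.2e-06). The other exons of greatest rise were in BSCL2 (seipin, of lipid droplets), ARHGEF1 (a guanine nucleotide exchange factor), PSMG4 (a proteasome assembly chaperone), PUM2 (a Pumilio RNA-binding protein), MRPL55 (mitochondrial ribosome) and TOR2A (a torsin). Their mean inclusion went from 59.35% to 98.29% in BSCL2, from 5.03% to 32.28% in ARHGEF1, from 47.81% to 72.24% in PSMG4, from 8.49% to 32.85% in PUM2, from 46.98% to 70.16% in MRPL55 and from 46.54% to 68.04% in TOR2A. BSCL2 overlaps the readthrough gene HNRNPUL2-BSCL2 on the same strand and LEF1 overlaps LEF1-AS1 on the opposite one.

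The greatest fall was in ARHGAP17, a GTPase-activating protein. Inclusion of its exon of 234 nt ran from 40.29% over 57.68% to 74.49% unstimulated and from 6.63% over 13.98% to 20.68% with PMA. The treatments did not overlap, and the fall was 43.64 ± 4.11 points (limma, adjusted p = 1.6e-05). TRAPPC13, a subunit of a vesicle tethering complex, skipped its 18 nt exon more often (66.94% to 39.76%, means of 8), and CABIN1, an inhibitor of calcineurin, did so for an exon of 165 nt (97.92% to 67.19%), though with PMA values spread from 35.18% to 89.46%.

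The spliceosome itself was touched in SNRPC, the U1-C protein of the U1 particle that recognises the 5′ splice site. Its 43 nt exon was included at 93.38% (88.51% to 96.95%) without and 70.09% (63.76% to 79.72%) with PMA, a fall of 22.7 ± 2.17 points (limma, adjusted p = 1.6e-05). SNRPC-203, which lacks the exon, rose from 6.52% to 28.5% of the gene, and SNRPC-201 fell from 91.03% to 68.48%.

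**Figure D3:**
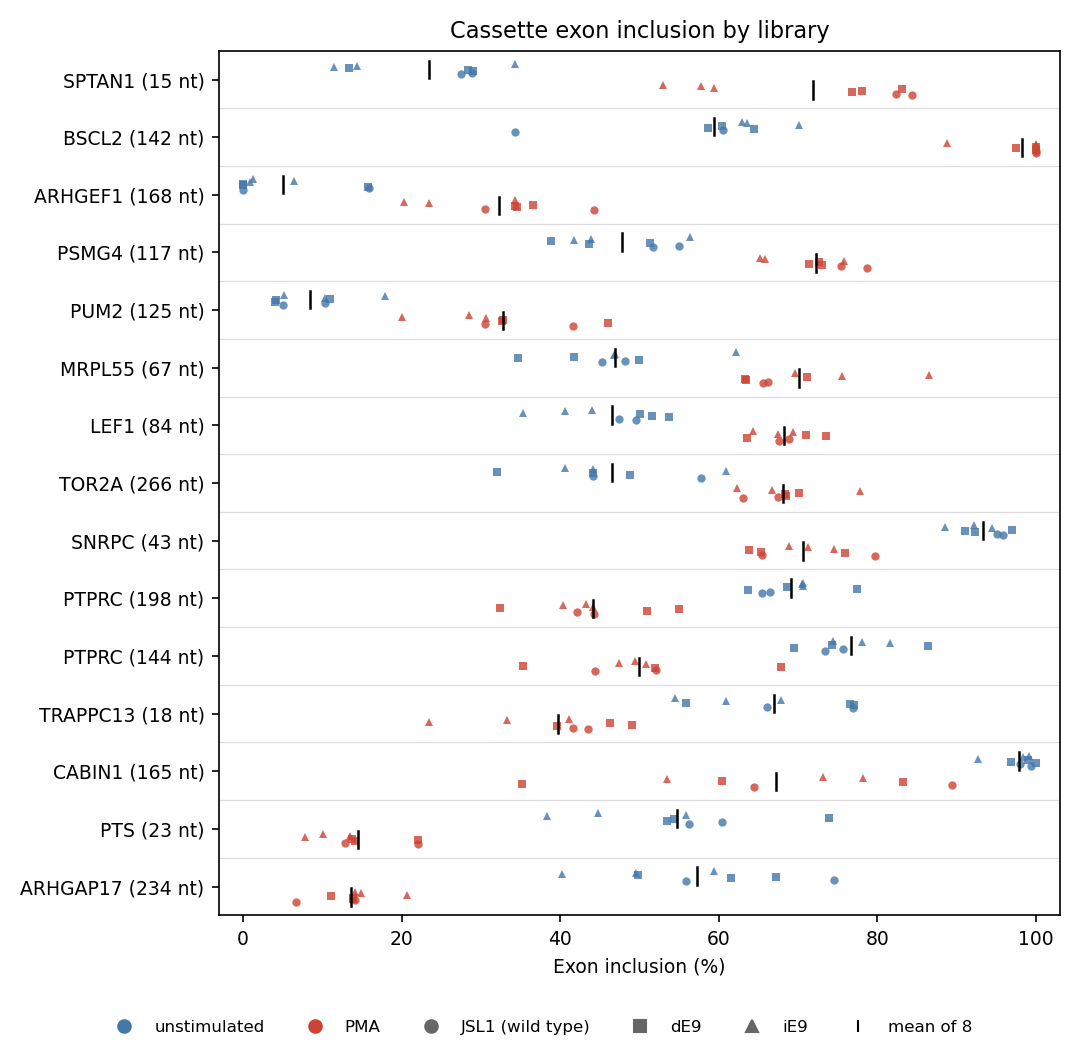
Inclusion in percent (horizontal axis) of the 8 cassette exons with the greatest rise and 7 of the 8 with the greatest fall whose treatments do not overlap, named by gene and exon length; each point is 1 library (blue unstimulated, red PMA; circles WT, squares dE9, triangles iE9) and the bar is the mean of 8. The SPTAN1 exon moves from 23.42% to 71.83% and the ARHGAP17 exon from 57.3% to 13.65%.

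Called exons had some features that the rule did not use. The median GC content was 57.2% for rising and 48.1% for falling exons, beside 48.7% for all tested. GAAGAA, a purine-rich motif of the kind bound by SR proteins, was found on the RNA strand in 4.4% of rising, 13.0% of falling and 11.3% of all exons tested. CACA was found in 38.0%, 50.7% and 38.5%, and TGTGT in 11.4%, 14.5% and 11.6%. Lengths were similar, with medians of 102.5, 116.0 and 107.0 nt, and among exons wholly within coding sequence 57.7% of rising, 46.7% of falling and 52.5% of all had a length that is a multiple of 3. These are descriptions of the annotated exons, and no test of them was made.

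PTPRC switched from the longer to the shorter forms of CD45. Its splicing on T cell activation is well known, and it was always named here. PTPRC-209, which holds exons A, B and C, went from 35.35% (29.34% to 49.92%) to 13.88% (7.95% to 22.15%) of the gene, a fall of 23.4 ± 2.59 points (limma, adjusted p = 0.000133). PTPRC-201, which lacks all 3 exons, went from 39.56% (28.76% to 43.92%) to 57.72% (49.82% to 76.57%), a rise of 20.72 ± 3.38 points (adjusted p = 0.0026). Neither pair of ranges overlapped.

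Each variable exon was skipped more often. As a share of all PTPRC transcripts that span the site, those holding exon A fell from a mean of 40.8% to 16.7%, those holding exon B from 58.3% to 36.7%, and those holding exon C from 44.8% to 18.6%. In an exact permutation test of the treatment within lines, two-sided over 2400 arrangements, p was 0.0008 for each, the smallest value the test allows. By the narrower cassette measure, exon A fell from 69.17% to 44.09% and exon C from 76.65% to 49.93%, with differences of -25.07 ± 2.69 and -26.72 ± 3.55 points. Both printed exons hold CACA 3 times.

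HDAC7 is the gene edited in these lines. Transcripts with its exon 9 made up 46.6% and 47.49% in unstimulated WT, 0.84% to 7.37% in dE9 and 51.78% to 74.85% in iE9, and with PMA 43.08% and 53.76%, 0% to 0.68%, and 42.31% to 63.0%. The dE9 libraries were below all others in both treatments. The difference between treatments over the 16 libraries was -5.28 points (exact permutation test within lines, p = 0.2), and none of the 7 HDAC7 transcripts tested was called. HDAC7-219, a retained-intron transcript, had the greatest difference (7.91 ± 1.89 points, limma, adjusted p = 0.027), which is under 10 points. SLC48A1 overlaps HDAC7 on the opposite strand.

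**Figure D4:**
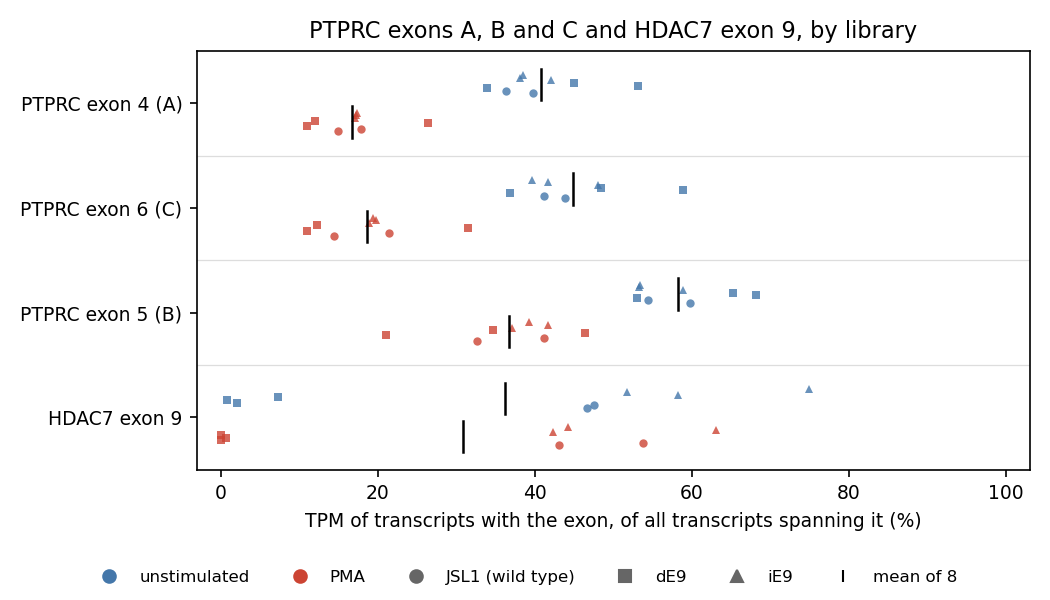
Share of transcripts holding the exon, in percent of the TPM of all transcripts that span it (horizontal axis), for PTPRC exons 4 (A), 5 (B) and 6 (C) and HDAC7 exon 9; each point is 1 library (blue unstimulated, red PMA; circles WT, squares dE9, triangles iE9) and the bar is the mean of 8. The 3 PTPRC exons separate by treatment, whereas for HDAC7 exon 9 the dE9 libraries lie below those of WT and iE9, which overlap with PMA.

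Genes of known activation-dependent splicing were changed in 4 of the 9 that could be tested (44.44%, against 7.29% of all genes): PTPRC, CELF2, LEF1 and MAP2K7. The list was drawn from splicing known to change in activated T cells, part of it described in Jurkat cells, and is no independent evidence. Over the list, the median of each gene's largest absolute difference was 11.64 points, beside 5.62 for all genes. CELF2, a splicing regulator, lost CELF2-209, at 18.75% (0% to 35.41%) unstimulated and listed at 0 in all 8 PMA libraries (-20.31 ± 3.47 points, limma, adjusted p = 0.00367), and gained CELF2-208, a decay target (3.17% to 20.52%). MAP2K7, the kinase upstream of JNK, gained MAP2K7-201, from 36.94% (27.58% to 45.23%) to 50.03% (45.15% to 62.79%), with ranges that touch. The gain was 18.84 points in WT and 25.72 in dE9 but 5.26 ± 4.0 in iE9, a difference between lines that did not pass (limma F test, adjusted p = 0.837).

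A minority of splicing and processing factors changed, in shares to be read beside the 7.29% of all genes. The called share was above that value for SR proteins, hnRNPs and cleavage factors, which was not tested. Of 19 SR proteins and SR protein kinases, 3 had a called transcript (15.79%), each a fall: TRA2A-201 from 59.73% to 40.27%, the retained-intron SRSF3-206 from 52.86% to 41.41%, and SRPK2-201 from 27.46% to 17.44%, which is at the 10 point limit and lost its call in 6 of 16 fits without 1 library. Among 39 hnRNPs and other regulators it was 5 (12.82%), with LUC7L-201, a U1-associated factor, falling from 30.01% to 8.8% and HNRNPDL-206 from 72.59% to 57.95%, next to CELF2, HNRNPH3 and SFPQ. The core spliceosome had 2 of 26 (7.69%; SNRPC, and PRPF3-201 from 69.54% to 52.87%), close to the 7.29% of all genes. Cleavage and polyadenylation factors had 3 of 18 (16.67%), all falls: CPSF4-204 from 46.66% to 35.41%, CSTF3-203 from 19.1% to 8.08% and RBBP6-202 from 15.03% to 4.28%.

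Signalling genes followed no common pattern. Beside the 7.29% of all genes, T cell receptor genes had 1 of 22 called (4.55%): LCK-202 of LCK, the kinase that starts receptor signalling, rose from a median of 4.66% (0% to 22.82%) to 35.94% (11.06% to 51.36%), by 26.53 ± 3.25 points (limma, adjusted p = 0.000286), with overlapping ranges. The falling LCK-214 has the same coding sequence as LCK-202. MAPK and PKC genes had 3 of 23 (13.04%). Among these PRKCH-201, of a protein kinase C, fell from 68.57% to 42.91%, with the call lost in 8 of 16 fits without 1 library. In the NF-kB list 1 of 17 (5.88%) was called, TNFAIP3 (A20, an inhibitor of NF-kB), whose TNFAIP3-201 went from 17.01% (0% to 32.7%) to 39.64% (35.41% to 50.6%) without overlap. Its coding sequence is that of the falling TNFAIP3-206. TNFAIP3 overlaps AL357060.1 on the opposite strand. Histone deacetylases and chromatin writers had 1 of 21 (4.76%), HDAC10-201, from 12.31% to 24.77%. Its rise was 18.95 points in WT and 16.38 in dE9 but 4.2 ± 3.23 in iE9, a difference between lines that did not pass (limma F test, adjusted p = 0.924). HDAC10 overlaps MAPK12 on the same strand.

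Apoptosis regulators had 5 of 16 genes called (31.25%, against 7.29% of all genes), BAX, BCL2L1 and CFLAR among them, while their median largest difference was 6.22 points beside 5.62 for all genes. BCL2L1-203 rose from a mean of 6.95% to 35.72%, with the same coding sequence as the falling BCL2L1-201. CFLAR-203 of the caspase-8 inhibitor FLIP fell from 35.88% (7.36% to 54.12%) to 9.7% (0% to 13.35%), with ranges that overlap. CFLAR is near the lower limit of expression, with a lowest TPM of 5.009.

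Actin and adhesion genes had 6 of 31 called (19.35%, against 7.29% of all genes, as for each list here), among them ARHGEF1, ARPC1B, MYL12A, RAC1 and TPM4. RAC1-201 fell from 68.2% to 54.13%. In the other lists the counts were 2 of 20 lymphocyte transcription factors (10%; LEF1 and RUNX1), 2 of 17 genes of glycolysis (11.76%; ALDOA and LDHA), 2 of 14 ribosomal proteins (14.29%; RPLP0 and RPS24) and 3 of 24 cell cycle genes (12.5%; CCND3, CDC25B and CDK13). Among them the aldolase transcript ALDOA-221 rose from 46.86% (44.25% to 51.68%) to 68.15% (60.62% to 76.75%), and RPS24-214 fell from 69.09% (66.07% to 73.59%) to 42.94% (31.51% to 55.7%), in favour of RPS24-202 (18.06% to 34.44%, means). CCND3-203 of cyclin D3 fell from 80.06% to 57.24%, CDC25B-201 of a cell cycle phosphatase rose from 21.73% to 44.26%, and CDK13-212 fell from 17.37% to 4.92%; in fits without 1 library CDC25B-201 lost its call in 9 of 16 and CDK13-212 in 13 of 16. RUNX1-207 rose from 12.48% to 28.19%, LDHA-203 of lactate dehydrogenase from 12.16% to 27.58%, and RPLP0-203 from 53.8% to 64.27%. ALDOA overlaps AC093512.2 on the same strand.

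Within genes, retained-intron shares rose more often than they fell, and coding shares fell more often than they rose. The summed share of retained-intron transcripts rose in 42 and fell in 18 of 3493 genes (1.72% called), that of decay targets rose in 15 and fell in 8 of 1916 (1.2%), and that of protein-coding transcripts rose in 37 and fell in 110 of 5644 (2.6%). IMPDH2, of guanine nucleotide synthesis, gained retained-intron usage from a mean of 18.98% to 40.28%, DHODH, of pyrimidine synthesis, from 19.33% to 40.0%, and the zinc finger gene ZNF473 from 7.59% to 27.42%. These counts move with 2 libraries: without both iE9 libraries numbered 1, the coding share fell in 177 and rose in 62 genes, the retained-intron share rose in 87 and fell in 24, and the decay share rose in 18 and fell in 20, which turns the balance of that class.

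Averaged over genes, the decay class went from 10.32% to 10.73% (3910 genes), the retained-intron class from 14.84% to 16.35% (5145 genes) and the coding class from 78.12% to 76.78% (7796 genes). By the exact permutation test within lines, two-sided, p was 0.0008 (the smallest value the test allows), 0.1617 and 0.0758. With same-numbered libraries taken as pairs, an exact paired test gave p = 0.00781 for each class, the smallest value that test allows with 8 pairs. The iE9 libraries numbered 1 had 19.48% and 21.73% of retained-intron usage, above all other libraries of their treatment (13.47% to 14.64% and 14.94% to 16.31%), and the same libraries carry the high mitochondrial share. Without them the retained-intron difference was 1.41 points and the coding difference -1.22 points, each with an exact p of 0.00278. That is the smallest value the permutation test allows with 14 libraries, and leaving these libraries out was decided after the data were seen.

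**Figure D5:**
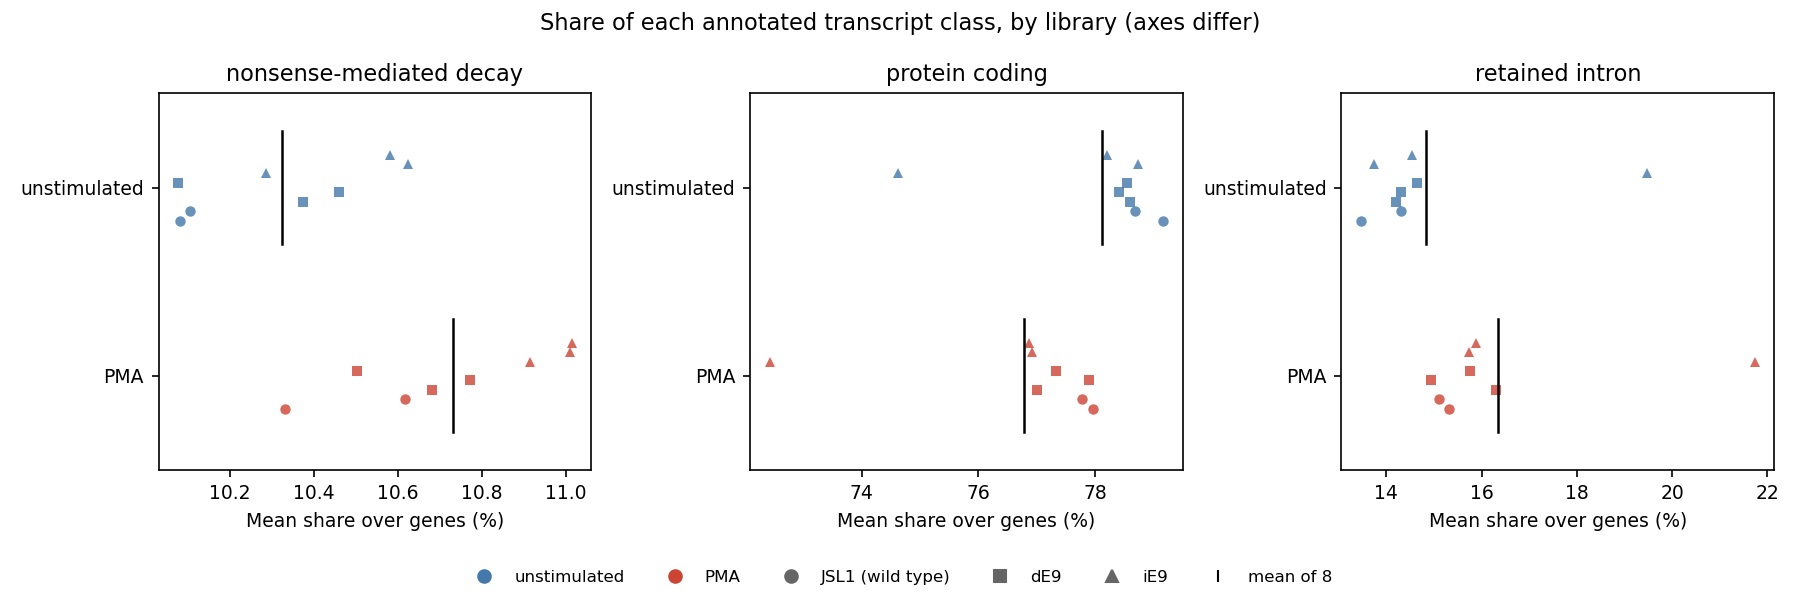
Mean share over genes, in percent (horizontal axes, which differ between panels), of transcripts annotated as nonsense-mediated decay targets, protein coding and retained intron; each point is 1 library (blue unstimulated, red PMA; circles WT, squares dE9, triangles iE9) and the bar is the mean of 8. The iE9 libraries numbered 1 stand apart in the coding and retained-intron panels, at 19.48% and 21.73% for retained introns.

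The response was compared between the 3 lines by the interaction of line and treatment. No transcript of 28608 passed (limma F test, 0 with an adjusted p under 0.05, smallest adjusted p = 0.23), and 1468 (5.13%) had an unadjusted p under 0.05; fits without 1 library gave 0 to 3. Of the 780 called transcripts, 647 differed by at least 10 points in WT, 665 in dE9, 552 in iE9 and 378 in all 3. The 780 were chosen by their difference over these same lines, so these counts do not show replication between lines. Across all 28608 transcripts, which are not independent within a gene, the differences of WT and dE9 had a Pearson r of 0.428, WT and iE9 0.228, and dE9 and iE9 0.239. The lowest interaction p values include PTK2B-203, of a focal adhesion kinase relative, with -14.1 points in WT, -28.94 in dE9 and -4.21 in iE9, which did not pass. Among cassette exons 1 passed, an exon of 36 nt in AP3S2, whose values are given in the closing section.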

How the data were processed

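Polyadenylated RNA of 16 Jurkat libraries was quantified with Salmon on hg38, per the submitters' processing notes, which also name DESeq2; for versions and strandedness no source used here gives an entry. The authors deposited, per the file headers, TPM and estimated counts (expected counts, not whole numbers) for each transcript and library, and a gene TPM table of 16 columns whose values equal the sums over transcripts; 0 columns were left unused. All 205870 transcripts matched GENCODE release 29.

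Shares in percent of gene TPM were computed and fitted with limma 3.58.1 in R 4.3.3 (line and treatment as terms, 12 residual degrees of freedom, prior variance trended on log2 mean gene TPM, Benjamini-Hochberg adjustment over all features tested). Every adjusted p in the text is from this fit unless another test is named, and differences are PMA minus unstimulated in percentage points ± SE. First and last exon groups are transcripts whose end exons overlap. Cassette exons needed 5 TPM of including plus skipping transcripts in each library and a mean inclusion of 5% to 95%. Interaction terms came from a fit of 6 groups. The median SE of a difference was 2.87 points. edgeR 4.0.16 was run on rounded estimated counts. Scripts were tested on simulated data. Depth bears on precision: the median eligible gene had a lowest count of 568.

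Named were the 20 switches of greatest size without overlap of treatments, 8 exons per direction, 5 first and 5 last exon genes of greatest change, up to 3 called genes in each of 16 lists, PTPRC, HDAC7 and the 5 lowest interaction p values, clone-based symbols left out; some items that met this rule are not reported here. Genes named for their called class share or for a single leading transcript were chosen after their values were seen. The comparison, the lists and the members were chosen with earlier results of these data known. Library numbers were not used to pair the samples in the main fits. P-values measure the spread between libraries, which may be technical. Alternatives were other scales, filters, shares of counts, coding transcripts alone, edgeR, a replicate block and leaving out libraries.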

Additional observations from a re-analysis of the deposited data

Results flagged for a closer look

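The change with PMA in 1 cassette exon differed between the lines. This exon of 36 nt lies in AP3S2 (chr15:89878265-89878300, - strand), which encodes a subunit of the AP-3 vesicle adaptor. Its inclusion was listed at 0 in all 3 dE9 PMA libraries, against 37.3% to 48.27% in unstimulated dE9, while it changed by 4.86 points in WT and 13.54 points in iE9. The interaction of line and treatment had an adjusted p of 0.0216 over 5918 exons (limma F test), and adjusted p values from 0.00344 to 0.135 in the 16 fits without 1 library, of which 4 stayed under 0.05. The call was lost in the others, among them every fit without a dE9 PMA library. AP3S2 overlaps the readthrough gene C15orf38-AP3S2 on the same strand, and what the readthrough contributes was not tested.

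In the named results, 1 library of 8 stood apart from the other 7 in 21 of 198 tests by Dixon's criterion, which chance meets in about 1 of 20 groups, and 14 of these were an iE9 library numbered 1. The unstimulated iE9 library numbered 1 had a PSMB10-201 share of 39.03% (other libraries 14.37% to 22.2%), TRA2A-201 of 39.12% (54.55% to 68.16%), HNRNPDL-206 of 59.18% (70.58% to 79.06%), BCL2L1-203 of 31.77% (0% to 11.48%), CCND3-203 of 65.29% (78.38% to 84.54%) and CDK13-212 of 0% (13.52% to 23.92%). Its inclusion of the CABIN1 exon was 92.73%, and its mean coding and retained-intron shares were 74.62% and 19.48%. The PMA iE9 library numbered 1 had 35.75% of COG8-207 (13.75% to 22.52% in the others), 20.82% of CPSF4-204 (35.21% to 39.75%) and 14.99% of HDAC10-201 (23.66% to 29.46%), with mean coding and retained-intron shares of 72.42% and 21.73%. Both libraries have the highest mitochondrial shares of their treatment, and the part of that in these values was not tested.

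Other libraries stood apart in single results. The dE9 PMA library numbered 1 had 58.47% of UNG-201 (0.5% to 18.74% in the others), and the dE9 PMA library numbered 2 had 50.95% of SLC38A10-202. Among unstimulated libraries, WT number 1 had 3.08% of LIMS1-203 and a BSCL2 exon inclusion of 34.3% (58.62% to 70.12%), dE9 number 1 had 10.49% of LEF1-201, and dE9 number 2 had 15.75% of HDAC7-217. The PMA iE9 library numbered 3 had a BSCL2 exon inclusion of 88.84% (97.47% to 100% in the others).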

How the results depend on the processing

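Of the 780 transcripts, 460 (59.0%) were called in each of the 16 fits without 1 library, which gave 270 to 364 rises, 344 to 530 falls, 470 to 686 genes and 125 to 183 switches. All 16 exons and 62 of the 72 called transcripts that met the naming rule kept their call in each of these fits; among those that lost it were CDK13-212 in 13 of the 16 fits, CDC25B-201 in 9, PRKCH-201 in 8, SRPK2-201 in 6, CPSF4-204 in 4, RPLP0-203 in 3, RBBP6-202 in 1 (without the iE9 unstimulated library numbered 2, -9.84 points) and the transcript RUNX1-207 in 1 (without the WT unstimulated library numbered 1, adjusted p = 0.0506 in limma). Without both iE9 libraries numbered 1, an alternative chosen after seeing the data, 374 transcripts rose and 479 fell, 664 of the 780 among them. edgeR called 70 rises and 45 falls in 107 genes with 6 switches, and 18 of those 72. A limit of 20 points left 66 rises and 98 falls in 127 genes with 37 switches. With no filter on the mean share, which adds many transcripts to the adjustment, 280 fell and 109 genes switched. PSMB10-201 went to -0.51 points over coding transcripts alone. Last exon falls grouped within 50 bases were 268.

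Class share counts moved too, and were not run in edgeR. Without both iE9 libraries numbered 1, coding shares rose in 62 and fell in 177 genes, and retained-intron shares rose in 87 and fell in 24. Decay shares rose in 18 and fell in 20 without them, and the mean coding and retained-intron differences (-1.224 and 1.408 points) passed the test. Over all 16 libraries, at a gene TPM of at least 10, decay shares rose in 12 and fell in 11 genes. Fits without 1 library gave 74 to 200 falls of the coding share, 26 to 102 rises of the retained-intron share and 3 to 22 falls of the decay share, and mean differences of -1.745 to -0.819 points (coding) and 0.832 to 2.084 points (retained intron). The interaction gave 0 to 3 transcripts and 0 to 2 exons.

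Library numbers were not used as pairs in the main fits: deviations of same-numbered libraries correlated at 0.02 to 0.237, not all above 0.1. Those of differently numbered libraries correlated at -0.14 to 0.071, and in each line every same-numbered value was the higher. Whether the numbers mark a shared origin was not tested. With the library number as a replicate block, 338 transcripts rose and 455 fell, decay shares fell in 15, coding shares fell in 206, and retained-intron shares rose in 110 and fell in 28 genes. The mean coding and retained-intron differences of -1.345 and 1.513 points had an exact paired p of 0.00781, the smallest value that test allows. The cause of these shifts was not tested.

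Shares rest on the authors' quantification, whose uncertainty for similar transcripts is not measured here; low shares are the least certain, and a share listed at 0 is an estimate. Genes under 5 TPM in any library were not analysed, and reads of overlapping genes are not told apart where no strand is recorded. Not every overlap of a named gene is given in the text.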
